A study of Mus musculus with 74 samples.

Results

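The genes described here encode the nuclear subunits of the mitochondrial respiratory chain and ATP synthase. They were chosen by name alone, as the rows of both expression tables that begin with Nduf followed by a, b, c, s or v and a digit, with Uqcr, with Cox4 to Cox8, or with Atp5. The rule found 77 of 21241 genes in the table of the NSC-medium experiment and 77 of 20558 in the table of the parallel experiment. Together these were 79 names, of which 75 stood in both tables. Cox4i2 and Cox6a2 were listed only in the NSC-medium table, and Cox7b2 and Cox8c only in the parallel table.

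RNA was sequenced from mouse cells during reprogramming of embryonic fibroblasts (MEFs) towards neural stem cells (NSCs) or pluripotent cells. Sox2-GFP MEFs carried M2rtTA and Dox-inducible lentiviruses, and were kept in NSC medium (bFGF and EGF) with Dox to day 18 and without it afterwards. The cocktails were BKM_FNV, BKM_Sox17 and BKM_Sox2, which combined Brn4, Klf4 and c-Myc with the engineered Sox17 variant eSox17FNV, with Sox17 or with Sox2, and K_FNV, which held Klf4 and eSox17FNV. They were collected on days 4, 8, 12 and 18 with Dox and on days 24 and 30 after its withdrawal. The induced lines iNSC_BKMF (Brn4, Klf4, c-Myc and eSox17FNV) and iNSC_KF (Klf4 and eSox17FNV) and the primary Sox2-GFP NSCs were at passage 15 in NSC medium, and the control MEFs, without factors, were at passage 1 in MEF medium. In the parallel experiment Nanog-CreER/Rosa26-tdTomato/Sox2-GFP MEFs received Klf4, c-Myc and eSox17FNV and grew in N2B27 medium with Dox to day 8. They were then split into LIF/2i (LIF with the inhibitors CHIR99021 and PD0325901) or NSC medium, with Dox to day 16 and without it on days 20 and 24. Strain, sex and age of the animals are not given in the sources used here. Each group had 2 libraries, except for 1 each of BKM_Sox17 and BKM_Sox2 at day 30. One library of BKM_Sox2 at day 24 was not used, which left 1. Whether replicates came from separate cultures is not given in the labels, and p-values therefore reflect no more than the spread among the libraries at hand, which may be technical.

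The respiratory chain sits in the inner mitochondrial membrane. Complex I takes electrons from NADH, complex III passes them from ubiquinol to cytochrome c, and complex IV hands them to oxygen, while all 3 pump protons. Complex V, the ATP synthase, lets the protons flow back through its c-ring and rotor and makes ATP. Fibroblasts reprogrammed to pluripotency are known to shift towards glycolysis, and neural stem cells change their use of oxidative metabolism as they differentiate. Some complex IV subunits have tissue or stress isoforms, such as Cox6b2 of testis, Cox6a2 and Cox7a1 of heart and skeletal muscle, Cox4i2 of lung, and Ndufa4l2, which takes the place of Ndufa4 under low oxygen.

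The promoters of 6 subunits are shown first, since they differ in the motifs that subunit genes are known to use. Each is the stretch before the RefSeq start (GRCm38.p6, 5′ to 3′ on the gene's strand) that held no annotated exon. Capitals mark a match to an ETS motif (CCGGAAG) or to the NRF1 core (GCGC, any 2 bases, GCGC), on either strand.
Ndufc2 (complex I accessory subunit, chr7:97399753-97400002, plus strand, no match): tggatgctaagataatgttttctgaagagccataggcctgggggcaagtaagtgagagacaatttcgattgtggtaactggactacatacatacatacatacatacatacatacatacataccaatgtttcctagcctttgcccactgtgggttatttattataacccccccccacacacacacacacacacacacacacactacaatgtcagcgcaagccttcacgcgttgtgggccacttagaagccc
Ndufv2 (complex I core subunit, chr17:66101560-66101809, minus strand, 2 overlapping NRF1 core matches): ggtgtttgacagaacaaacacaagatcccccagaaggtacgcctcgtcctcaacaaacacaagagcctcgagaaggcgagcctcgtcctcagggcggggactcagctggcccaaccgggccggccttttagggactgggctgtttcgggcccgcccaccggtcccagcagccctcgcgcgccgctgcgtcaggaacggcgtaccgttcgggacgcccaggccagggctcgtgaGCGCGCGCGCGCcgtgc
Ndufb6 (complex I accessory subunit, chr4:40279422-40279671, minus strand, 1 ETS match): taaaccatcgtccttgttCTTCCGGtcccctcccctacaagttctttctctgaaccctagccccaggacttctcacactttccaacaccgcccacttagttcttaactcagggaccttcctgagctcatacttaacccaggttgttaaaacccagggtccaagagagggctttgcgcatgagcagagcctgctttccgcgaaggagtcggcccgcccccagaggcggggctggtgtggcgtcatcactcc
Uqcr11 (complex III small subunit, chr10:80406831-80407071, minus strand, 1 ETS match): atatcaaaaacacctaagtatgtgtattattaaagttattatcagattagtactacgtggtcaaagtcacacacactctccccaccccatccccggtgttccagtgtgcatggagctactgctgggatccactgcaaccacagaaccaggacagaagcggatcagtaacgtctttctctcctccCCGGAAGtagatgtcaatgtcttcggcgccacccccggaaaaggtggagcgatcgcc
Cox5a (complex IV subunit, chr9:57520982-57521231, plus strand, no match): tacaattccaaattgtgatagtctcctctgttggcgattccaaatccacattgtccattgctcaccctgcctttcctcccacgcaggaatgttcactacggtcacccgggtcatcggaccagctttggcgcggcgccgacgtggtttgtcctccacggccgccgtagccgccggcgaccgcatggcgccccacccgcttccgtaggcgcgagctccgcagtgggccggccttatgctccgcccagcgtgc
Cox6b2 (testis isoform of a complex IV subunit, chr7:4753095-4753225, minus strand, no match): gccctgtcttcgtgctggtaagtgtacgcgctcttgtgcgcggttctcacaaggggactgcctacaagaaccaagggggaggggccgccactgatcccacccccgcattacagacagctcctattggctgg

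Promoters of 62 of the 79 names were matched by symbol, and the 250 bases before the start were searched on both strands. A gene was counted where any of its promoter windows held the motif. The NRF1 core was found in 12 of the 62 (19.4%), against 5.64% of all 27025 genes with a promoter window. The ETS motif was found in 11 (17.7%, against 7.83%), and the YY1 core AANATGGCG in 3 (4.84%, against 1.29%). At least 1 of the 3 was found for 23 genes (37.1%, against 13.4%), so 39 of the 62 had none of these letters. A match describes the letters only.

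The 79 genes lie on 19 chromosomes. Their median transcript was 742 nt long, against 2455 nt for all 21899 genes with a length, and 54 were below 1000 nt. A value of 100 or more in every library used was reached by 66 of 77 members in the NSC-medium experiment and by 70 of 77 in the parallel one. Ndufa4l2 and Cox7a1 were listed at 0 in at least 1 library of each table, and so were Cox4i2 and Cox6a2 in the NSC-medium table and Cox7b2 and Cox8c in the parallel table. For 7 members another gene has a nearly identical transcript (Atp5l has 9 such genes, Atp5h and Uqcrb 3 each, and Atp5k, Atp5o, Ndufb11 and Ndufs3 1 each), so their reads could be split. A further limit holds for 23 members that share exon bases with another gene, since strand was not recorded: Ndufa4l2 overlaps Shmt2, Cox6a2 overlaps Itgad and Ndufs6 overlaps Mrpl36.

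Values were normalized tag counts, and the columns of a table share nearly the same distribution, so depth is unknown. Log2 values of replicates correlated at 0.950 to 0.961 in the NSC-medium table and 0.937 to 0.955 in the parallel table. Fibroblast markers summed to 176244 to 176886 in MEFs and to 1151 to 1320 in NSCs. Neural stem cell markers summed to 117968 to 118240 in NSCs, 114907 to 115901 in iNSC_BKMF and 73224 to 80006 in iNSC_KF, but to at most 16722 in any cocktail library and to 1756 to 1880 in MEFs, where Sox2, Sox3, Olig2 and Nr2e1 were at 0. In such bulk samples fewer cells of a type and less RNA per cell cannot be told apart. Differences are log2 fold changes of the value plus 2, tested with limma over all genes, and a gene was called at an adjusted p below 0.05 with no minimum fold. The words rose and fell are kept for called genes.

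**Figure D1:**
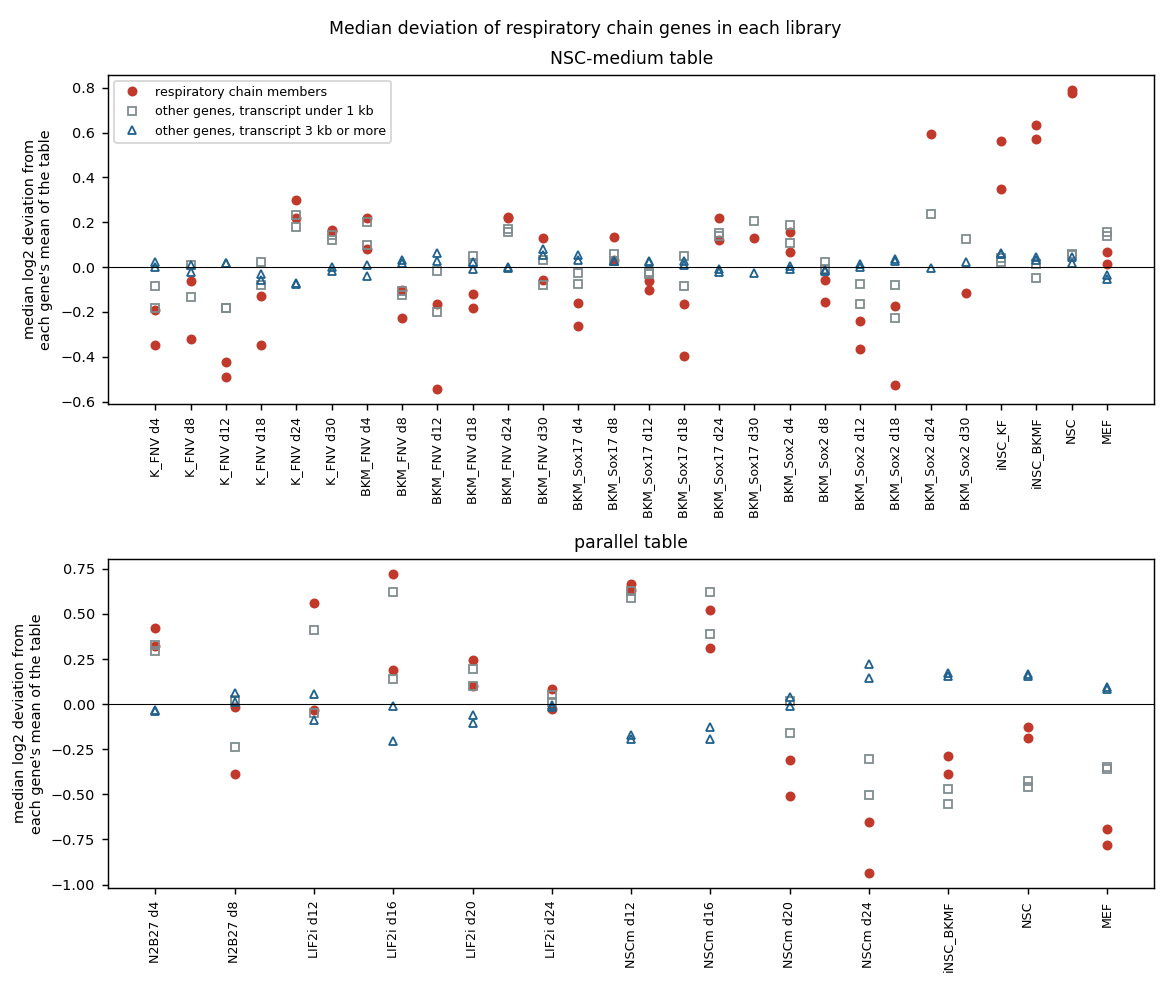
Median log2 deviation of the respiratory chain genes (filled), of other genes with short transcripts (below 1000 nt) and of other genes with long transcripts (3000 nt or more) from their mean over the table, for each library of the NSC-medium and the parallel table. The respiratory chain genes of NSCs stood at 0.79 and 0.78 while short transcripts stood at 0.06 and 0.05, whereas in the parallel table both sets of genes moved together between the NSC-medium libraries of days 12 to 16 and those of days 20 to 24.

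The broadest difference between cell types was that of NSCs against MEFs. Of 76 members tested, 49 rose in NSCs and 2 fell, where 56.9% of all genes were called, 30.7% as higher and 26.2% as lower. The median log2 fold change was 0.76 over the members and 0.06 over all genes. All complexes moved in the same direction: 22 of 35 complex I genes rose, 5 of 8 of complex III, 11 of 16 of complex IV and 11 of 17 of complex V, with medians of 0.77, 0.73, 0.77 and 0.69. The only members that fell were 2 isoforms of complex IV. Other genes with short transcripts had a median of -0.05 and those with long ones 0.08. With a term for transcript length 57 members rose and 2 fell, with a median of 0.84, where 57.3% of all genes were called.

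Ndufc2, an accessory subunit of the membrane arm of complex I (chr7:97400003-97407802), changed most. It had 3435 and 3415 in NSCs, against 552 and 518 in MEFs, a log2 fold change of 2.67 ± 0.28 (SE, adjusted p = 1.97e-09). The gap between the groups was many times the gap within them. Its promoter, shown above, held none of the 3 motifs. Ndufv3, an accessory subunit of the NADH-oxidizing module (chr17:31520115-31531331), had 1381 and 1469 in NSCs, against 351 and 357 in MEFs (2.00 ± 0.27, adjusted p = 1.74e-07). Again the groups did not overlap. Of the core subunits of complex I, which carry its redox centres, all 7 rose, among them Ndufs8 by 1.09 ± 0.19, Ndufs1 by 1.01 ± 0.10, Ndufs3 by 0.86 ± 0.13, Ndufs7 by 0.84 ± 0.17, Ndufv2 by 0.80 ± 0.10 and Ndufv1 by 0.75 ± 0.15.

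In complex V, Atp5a1, the alpha subunit of the catalytic head, had 23871 and 19770 in NSCs, against 7809 and 7645 in MEFs (1.49 ± 0.09, adjusted p = 4.63e-14). The beta subunit Atp5b had 34127 and 34127 in NSCs, against 16288 and 18425 in MEFs, a log2 fold change of 0.98. The 3 genes of the c-ring, which encode the same mature protein, did not move alike. Atp5g3 had 6878 and 6754 in NSCs, against 4142 and 4178 in MEFs (0.71 ± 0.26, adjusted p = 0.0198). Atp5g1 had 1337 and 1043 in NSCs, against 1325 and 1251 in MEFs (-0.12 ± 0.19, adjusted p = 0.641), so its groups overlapped. Atp5g2 was not called either (0.50 ± 0.45, adjusted p = 0.374).

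In complex IV the common isoforms rose. Cox8a, its smallest subunit, had 4389 and 4330 in NSCs, against 1462 and 1801 in MEFs (1.42 ± 0.22, adjusted p = 2.1e-06). Cox4i1, the usual regulatory subunit, had 5959 and 5959 in NSCs, against 3341 and 3341 in MEFs (0.83 ± 0.13). Cox6b1, which bridges the dimer, had 2683 and 2491 in NSCs, against 1364 and 1390 in MEFs (0.91 ± 0.31). Both stood apart between the groups. The members that fell were the alternative isoforms. Cox6b2 had 4 and 11 in NSCs, against 18 and 19 in MEFs (-1.21 ± 0.42, adjusted p = 0.0137). Cox4i2 was listed at 0 and 0 in NSCs, against 6 and 5 in MEFs. Both are low values, and the call of Cox6b2 was lost without NSC replicate 1 (adjusted p = 0.282) or MEF replicate 2 (adjusted p = 0.0593). Cox5a, a nuclear subunit next to the catalytic core, had 2376 and 2151 in NSCs, against 2386 and 2263 in MEFs, a log2 fold change of -0.04 (adjusted p = 0.917).

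Genes that work beside the chain were read from further lists. Of 8 respiratory genes that the naming rule missed, 6 rose and none fell in NSCs, among them the succinate dehydrogenase subunits Sdhc (1.56 ± 0.08) and Sdha (1.09). Of 13 tricarboxylic acid cycle genes 9 rose and none fell, among them Idh3g, a subunit of isocitrate dehydrogenase (1.68). Ppargc1a, a coactivator of mitochondrial genes, rose by 6.52 ± 0.86 (adjusted p = 1.5e-07, means 1052 in NSCs and 32 in MEFs), one of 6 of 15 biogenesis genes that rose, while Pprc1 fell by 1.86. Assembly factors were mixed, with 15 of 39 higher and 7 lower, and so were mitochondrial ribosomal proteins, with 4 of 20 higher and 3 lower. Of the 13 mitochondrially encoded subunits 3 rose and 1 fell.

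**Figure D2:**
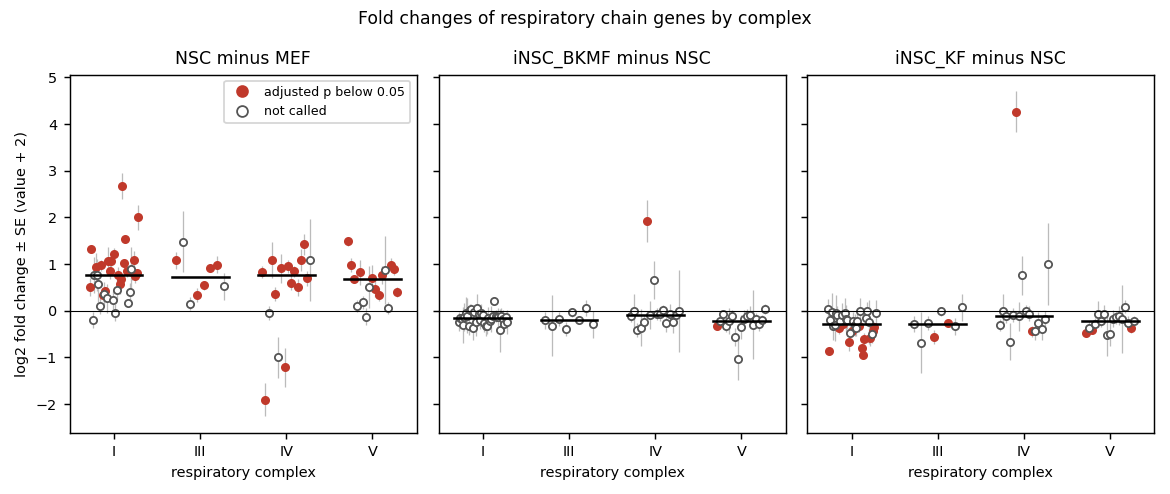
Log2 fold change ± SE of each respiratory chain gene, grouped by complex I, III, IV and V, for NSC minus MEF, iNSC_BKMF minus NSC and iNSC_KF minus NSC. Filled points were called at an adjusted p below 0.05 and bars are medians of the complex. Nearly the whole of NSC minus MEF lies above 0, with medians from 0.69 to 0.77, while iNSC_KF minus NSC lies mainly below it.

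The 2 induced lines were each set against primary NSCs, and they were not tested against each other. In iNSC_BKMF 1 member rose and 1 fell against NSCs, where 5.83% of all genes were called, 3.07% as higher and 2.76% as lower. The members' median was -0.17. Atp5a1 had 18428 and 16291 in iNSC_BKMF, against 23871 and 19770 in NSCs (-0.33 ± 0.09, adjusted p = 0.0357). The muscle isoform Cox6a2 had 6 and 16 in iNSC_BKMF, against 0 and 3 in NSCs (adjusted p = 0.00907). Neither call held without iNSC_BKMF replicate 2 (adjusted p = 0.367 and 0.213) or NSC replicate 1 (0.672 and 0.327).

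In iNSC_KF 18 members fell and 1 rose against NSCs, where 22.2% of all genes were called, 11.1% as lower and 11.1% as higher. The members' median was -0.25. The genes that fell were mainly of complex I, with 12 of 35, and included 6 of its 7 core subunits, against 2 of 8 in complex III, 1 of 16 in complex IV and 3 of 17 in complex V. Ndufa10, an accessory subunit, had 1672 and 1725 in iNSC_KF, against 3065 and 3144 in NSCs (-0.87 ± 0.08, adjusted p = 1.06e-09). Its groups were clearly apart. Ndufs1 (-0.80 ± 0.10) and Ndufs3 (-0.60 ± 0.13) fell too. Ndufc2 and Ndufv3, at the top of the difference between NSCs and MEFs, were not called: Ndufc2 had 2971 and 3895 and Ndufv3 1417 and 1349 in iNSC_KF. Cox6a2 had 57 and 61 in iNSC_KF, against 0 and 3 in NSCs (adjusted p = 2.14e-08), while skeletal muscle markers summed to 81 to 102 in iNSC_KF and 99 to 116 in NSCs. In the same line 9 of 13 tricarboxylic acid cycle genes fell and none rose, led by Suclg2 (-0.99). The count of called members was 10 without iNSC_KF replicate 1, 10 without NSC replicate 2 and 11 without NSC replicate 1, against 19 with all libraries, and 3 when only the 4 libraries of these groups were fitted.

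Against MEFs, the 4 cocktails at day 4 showed no common direction of the chain. Averaged over cocktails, 13 of 76 members rose and 17 fell, where 51.7% of all genes were called, 24.2% as higher and 27.5% as lower. The median was -0.16, against -0.02 over all genes. When libraries were scaled by size factors the median of all genes moved to 0.12, and the counts were 20 higher and 12 lower, so no direction of the whole is read. Medium differed between these groups as well as the factors, which cannot be told apart, and of these groups only the MEFs have a labelled passage.

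Cox6b2 stood out among them. It had 133 and 145 in K_FNV, 146 and 184 in BKM_FNV, 94 and 116 in BKM_Sox17 and 267 and 217 in BKM_Sox2, against 18 and 19 in MEFs (2.94 ± 0.33, adjusted p = 1.94e-08). Each cocktail library was above both MEF libraries. The gene lay between 73 and 507 in the cocktail libraries of all days, and at 14 and 12 in iNSC_KF, 13 and 11 in iNSC_BKMF and 4 and 11 in NSCs. Its partner Cox6b1 is on the same chromosome (chr7:30616861-30626151) but far from it (Cox6b2 at chr7:4751792-4753094). Averaged over the 4 cocktails, Atp5a1 rose by 0.92 ± 0.07, and Uqcrc1 and Uqcrc2, the core subunits of complex III, by 0.57 and 0.55. Uqcrc1 had 2988 and 2939 in K_FNV and 5289 to 5780 in the 3 cocktails with Brn4 and c-Myc, against 3167 and 3185 in MEFs. Uqcrc2 had 2222 and 2208 in K_FNV and 3416 to 3852 in the other cocktails, against 2204 and 2134 in MEFs. K_FNV thus lay close to the MEFs in both genes, and the other cocktails above them. Atp5k, a small membrane subunit of ATP synthase, had 16 to 131 in the cocktails, against 350 and 450 in MEFs (-2.75 ± 0.58). Ndufa3, an accessory subunit of complex I, had 82 to 204 in the cocktails, against 397 and 393 in MEFs (-1.33 ± 0.30). In both genes every cocktail library was below the MEFs. Ndufv3 fell by 0.74 ± 0.21. In the same libraries 9 of 13 tricarboxylic acid cycle genes rose and none fell.

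Days 18 and 4 on Dox were compared within each cocktail. In BKM_FNV 30 members fell and 10 rose, where 46.2% of all genes were called, 24.2% as lower and 22% as higher. In BKM_Sox17 21 fell and 11 rose (43.6% of all genes called, 23.5% as lower and 20.1% as higher). In BKM_Sox2 41 fell and 4 rose (40.9%, 22.7% and 18.2%). In K_FNV, without Brn4 and c-Myc, 8 fell and 15 rose (29.6%, 16.3% and 13.2%). The medians were 0.02 in K_FNV, -0.30 in BKM_FNV, -0.06 in BKM_Sox17 and -0.44 in BKM_Sox2. In BKM_Sox2 other short transcripts had a median of -0.27 and all genes -0.09. What part of the members' fall goes with transcript length was tested as an alternative. With a length term 31 fell and 7 rose there, where 40.7% of all genes were called. With that term 22 fell and 13 rose in BKM_FNV (46.4% of all genes called), and 21 fell and 12 rose in BKM_Sox17 (44%). In K_FNV 11 fell and 12 rose (29.7%), and the median was then -0.06. Without BKM_FNV day 4 replicate 2 the count called there was 26, against 40, without BKM_Sox17 day 4 replicate 2 it was 21, against 32, and without K_FNV day 4 replicate 1 it was 15, against 23. Whether the courses differ from each other was not tested.

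In BKM_FNV 11 of 17 complex V genes fell, 5 of 8 of complex III, 11 of 35 of complex I and 3 of 16 of complex IV, with medians of -0.50, -0.54, -0.19 and -0.12. In BKM_Sox2 11 of 17 complex V genes fell, 6 of 8 of complex III, 18 of 35 of complex I and 6 of 16 of complex IV. Atp5g1 had 621 and 611 on day 18 of BKM_FNV, against 1826 and 2042 on day 4 (-1.65 ± 0.19). In BKM_Sox17 it had 752 and 686 on day 18, against 1409 and 1732 on day 4, in BKM_Sox2 1280 and 644, against 1845 and 1887, and in K_FNV 725 and 789, against 1209 and 1076. Day 18 was thus below day 4 in all 4 cocktails, with the least gap in K_FNV, where the call was lost without day 18 replicate 1 (adjusted p = 0.0943) or day 4 replicate 1 (0.124). Atp5a1 had 8955 and 8955 on day 18 of BKM_FNV, against 19770 and 21719 on day 4 (-1.21 ± 0.09). In BKM_Sox17 it had 8744 and 8744 on day 18, against 18428 and 15011 on day 4, and in BKM_Sox2 10522 and 8955, against 16291 and 18428. In K_FNV it had 7159 and 6878 on day 18, against 7645 and 7809 on day 4, close to the 7809 and 7645 of MEFs. High day 4 values of Atp5a1 were thus seen in the 3 cocktails with Brn4 and c-Myc. Myc had 3252 to 12147 in them on Dox, against 925 to 1434 in K_FNV. Pou3f4, the gene of Brn4, had 29410 to 34130 in them on day 4, against 22 and 31 in K_FNV. The 2 factors cannot be told apart here, and their part in the result was not tested. Ndufs8, a core iron-sulfur subunit of complex I, had 286 and 297 on day 18 of BKM_FNV, against 804 and 1030 on day 4 (-1.64 ± 0.19). In BKM_Sox17 it had 263 and 297 on day 18, against 709 and 805 on day 4 (-1.43). In BKM_Sox2 its groups overlapped, with 694 and 398 on day 18 and 672 and 752 on day 4. In K_FNV day 18 lay above day 4, with means of 506 and 396.5 (0.33 ± 0.19), which was not called. In BKM_Sox2 the genes that fell most were Atp5k, with 3 and 20 on day 18 against 82 and 131 on day 4 (-3.33 ± 0.73), Uqcr11 (-2.24), Uqcrq, another small complex III subunit (-1.59 ± 0.29), and Atp5g3, with 1610 and 2005 against 4852 and 4852 (-1.43 ± 0.26). The call of Uqcr11 was lost without BKM_Sox2 day 18 replicate 2 (adjusted p = 0.0818) or day 4 replicate 2 (0.0519).

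A few genes of complexes I and IV went the other way. Ndufv3 had 628 and 716 on day 18 of BKM_FNV, against 208 and 206 on day 4 (1.69 ± 0.27). In BKM_Sox17 it had 656 and 480 on day 18, against 147 and 146 on day 4 (1.92 ± 0.27), and in K_FNV 844 and 458, against 319 and 293, where the call was lost without day 18 replicate 1 (adjusted p = 0.162). The days were well apart in those 3 cocktails. In BKM_Sox2 the 239 and 366 of day 18 lay just above the 237 and 198 of day 4, which was not called. After Dox, on days 24 and 30, Ndufv3 lay at 541 to 810 in all 4 cocktails. Ndufa6, an accessory subunit at the junction of the 2 arms (chr15:82350140-82354322), had 1381 and 1421 on day 18 of BKM_FNV, against 572 and 639 on day 4 (1.21 ± 0.12). In BKM_Sox17 it had 1011 and 851, against 460 and 420 (1.07 ± 0.12), in K_FNV 1172 and 826, against 612 and 582 (0.72 ± 0.12), and in BKM_Sox2 716 and 755, against 674 and 654, which was not called. In BKM_Sox2 too, Ndufa7 of complex I rose (0.54), as it did in BKM_FNV (0.33), BKM_Sox17 (0.45) and K_FNV (0.64). Cox7a2l, a complex IV member which helps to join complexes III and IV into a supercomplex, had 2683 and 2768 on day 18 of BKM_FNV, against 1615 and 1801 on day 4 (0.68). It also rose in BKM_Sox17 (0.42), BKM_Sox2 (0.46) and K_FNV (0.59).

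**Figure D3:**
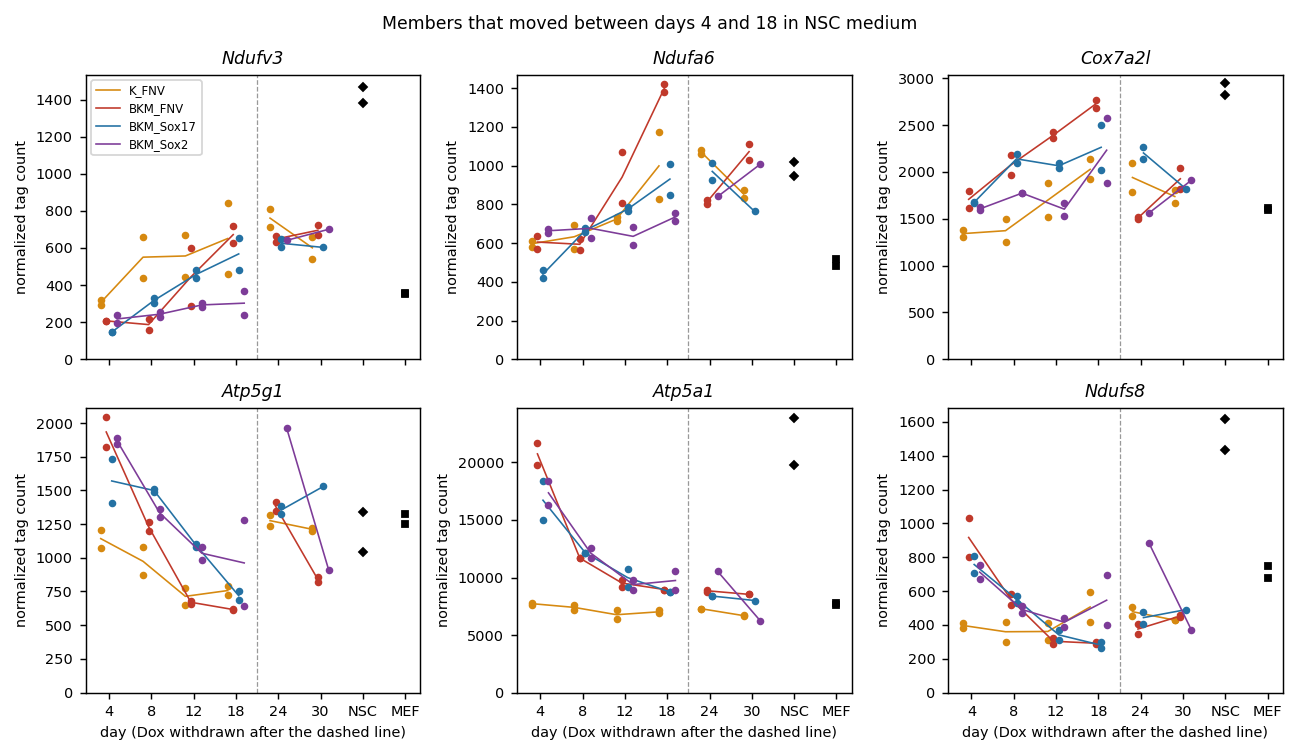
Values of Ndufv3, Ndufa6, Cox7a2l, Atp5g1, Atp5a1 and Ndufs8 by day of reprogramming in the 4 cocktails (points are libraries, lines join group means, and the dashed line marks the withdrawal of Dox), with NSC and MEF libraries at the right. Atp5a1, Atp5g1 and Ndufs8 are lower on day 18 than on day 4 of BKM_FNV and BKM_Sox17, and Ndufv3 and Ndufa6 are higher.

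Ndufa4l2 (chr10:127514967-127517154) had the steepest course. It had 314 and 77 on day 18 of K_FNV, against 0 and 1 on day 4. In BKM_FNV it had 482 and 374 on day 18, against 0 and 1 on day 4, in BKM_Sox17 111 and 180, against 1 and 0, and in BKM_Sox2 40 and 56, against 2 and 0. It was listed at 0 in both MEF libraries. All day 18 libraries lay above all day 4 libraries, and the call held in the 4 cocktails (adjusted p = 4.04e-08 in BKM_FNV), but the fold against values of about 0 depends on the number added and is not given. On day 12 the replicates were far apart in K_FNV, with 61 and 260, and in BKM_FNV, with 40 and 181. On day 30 it had 4 and 8 in K_FNV, 12 and 18 in BKM_FNV, 8 in BKM_Sox17 and 13 in BKM_Sox2. A change from day 18 to day 30 was not tested. Shmt2, which shares exon bases with it on the other strand, went the other way, with 826 and 842 on day 18 of BKM_FNV, against 6754 and 7284 on day 4. The gene that Ndufa4l2 can replace, Ndufa4, fell by 0.77 ± 0.16 in K_FNV (1075 and 775 on day 18, against 1642 and 1471 on day 4). It fell by 0.98 in BKM_FNV, by 0.41 in BKM_Sox17 and by 1.22 in BKM_Sox2, where Ndufa4l2 had its lowest day 18 values. Cox4i2, the isoform that is likewise known for low oxygen, had 24 and 29 on day 18 of K_FNV, against 2 and 0 on day 4 (adjusted p = 4.6e-08), and at most 6 on day 18 of the other cocktails. Of 17 hypoxia response genes 17 rose in K_FNV, 13 in BKM_FNV, 10 in BKM_Sox17 and 11 in BKM_Sox2, and 0, 3, 2 and 2 fell. Bnip3, a mitophagy receptor among them, had means of 4341 on day 18 and 233 on day 4 of K_FNV (4.22) and of 2812 and 171 in BKM_FNV (4.02).

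**Figure D4:**
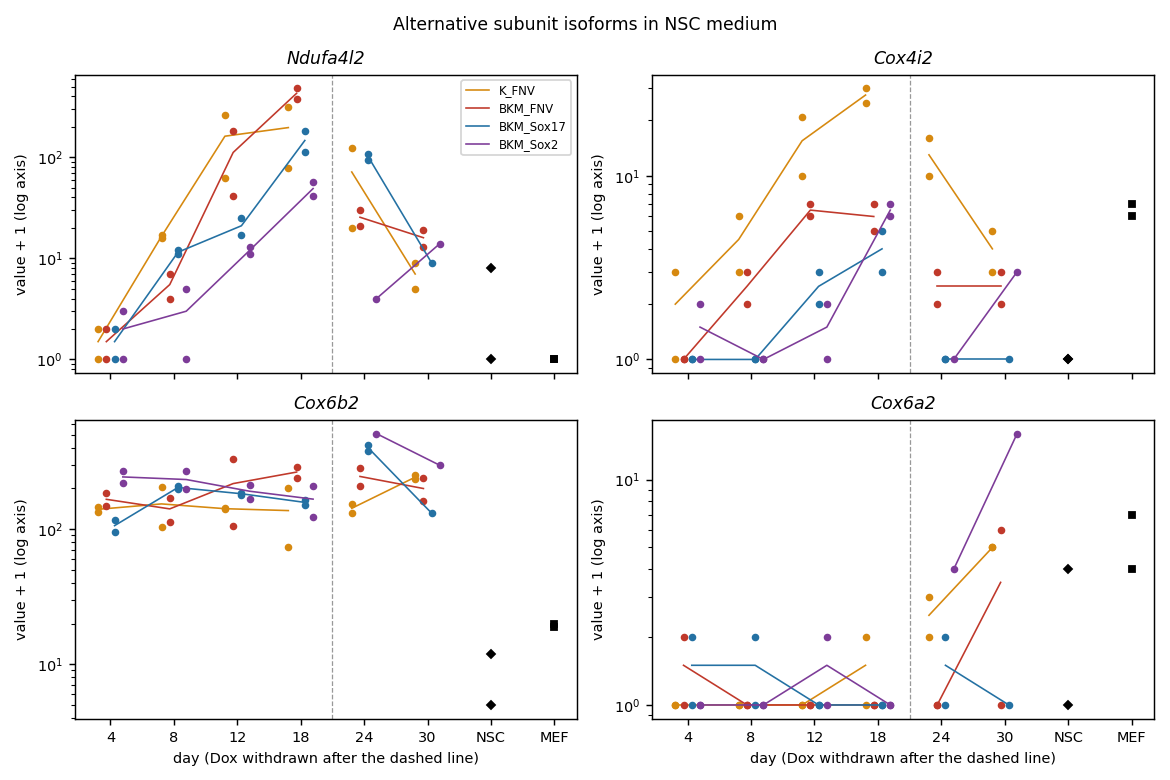
Values of the alternative isoforms Ndufa4l2, Cox4i2, Cox6b2 and Cox6a2 in each library of the NSC-medium table, plotted as value + 1 on a log axis by day of reprogramming, with lines through group means, the withdrawal of Dox dashed, and NSC and MEF libraries at the right. Ndufa4l2 climbs from at most 2 on day 4 to between 40 and 482 on day 18, and Cox6b2 stays at 73 to 507 in the cocktails, against 18 and 19 in MEFs.

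The gene groups around the chain moved as follows. Mitochondrial ribosomal proteins fell in 18 of 20 cases in BKM_FNV (median -1.08), 14 in BKM_Sox17 and 17 in BKM_Sox2, but in 2 in K_FNV, and none rose. In BKM_FNV Mrpl20 fell by 1.86 and Mrpl12 by 1.79. Of 39 assembly factors 24 fell in BKM_FNV, 19 in BKM_Sox17, 25 in BKM_Sox2 and 4 in K_FNV, while 3, 3, 1 and 3 rose, with Ecsit, a complex I assembly factor, at -2.79 in BKM_FNV. Tricarboxylic acid cycle genes fell in 11, 9, 12 and 6 of 13 cases in BKM_FNV, BKM_Sox17, BKM_Sox2 and K_FNV, for example Idh3a by 1.51 in BKM_FNV. In BKM_FNV 11 of 15 biogenesis genes fell, among them Twnk, the mitochondrial DNA helicase (-1.81), and Pprc1 (-1.51).

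Averaged over days 4 to 18, K_FNV had lower values of 27 members and higher values of 7 than BKM_FNV, where 54.6% of all genes were called, 28.2% as lower and 26.4% as higher. The members' median was -0.14. With the length term 22 were lower and 8 higher, with a median of -0.05, where 55.2% of all genes were called. Atp5a1 averaged 7228 in K_FNV and 12725 in BKM_FNV (-0.73 ± 0.05, adjusted p = 1.59e-13). Atp5g2 (-0.78), Ndufs6 (-0.70, a call lost without BKM_FNV day 12 replicate 2, at adjusted p = 0.0556, or K_FNV day 8 replicate 1, at 0.0613), Uqcrc1 (-0.70) and Cox4i1 (-0.68) fell too, so each complex had a member among them. Ndufa11, an accessory subunit of complex I, was higher by 0.67 ± 0.09, and Ndufv3 by 0.59. Of the mitochondrial ribosomal proteins 16 of 20 were lower in K_FNV and 1 higher. BKM_FNV was also set against the other cocktails of 4 factors. BKM_FNV had 8 members higher and 2 lower than BKM_Sox17, where 24% of all genes were called, 11.5% as higher and 12.4% as lower. Among the higher ones were Atp5g2 (0.76) and Ndufa6 (0.29). That count ran from 6 without BKM_Sox17 day 4 replicate 1 to 20 without BKM_FNV day 12 replicate 2, and either library was needed for the call of Atp5g2 (adjusted p = 0.0561 and 0.0507). BKM_FNV had 14 members higher and 10 lower than BKM_Sox2, where 32.3% of all genes were called, 16% as higher and 16.2% as lower. Ndufa4l2 led them, with a mean over days of 135.9 in BKM_FNV and 15.5 in BKM_Sox2 (1.63 ± 0.44, adjusted p = 0.00465), while Ndufa4 was lower by 0.40.

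After Dox withdrawal the differences were small against the background. K_FNV had 9 members higher and 10 lower than BKM_FNV on days 24 and 30, where 53.4% of all genes were called, 28.1% as higher and 25.3% as lower. Ndufa11 was higher by 0.79 and Ndufa8, another accessory subunit of complex I, by 0.73, while Atp5b was lower by 0.52 and Atp5a1 by 0.32. BKM_FNV had 3 members higher and 8 lower than BKM_Sox17 (51% of all genes called, 21.2% as higher and 29.8% as lower), and none higher and 12 lower than BKM_Sox2 (45.9%, 18.5% as higher and 27.5% as lower). Both of these splits turned when libraries were scaled by size factors, to 15 higher and 3 lower and to 12 higher and 6 lower, so no direction is read from them. With K_FNV and BKM_FNV, the count was 12 without BKM_FNV day 30 replicate 1 and without K_FNV day 30 replicate 2, against 19, and with BKM_FNV and BKM_Sox17 it was 7 without BKM_FNV day 30 replicate 1 and without BKM_Sox17 day 30 replicate 1, against 11. Sox17, whose values do not separate delivered from endogenous transcript, had 3716 and 7284 in K_FNV, 167 and 144 in BKM_FNV and 1621 and 1707 in BKM_Sox17 on day 24. On day 30 it had 174 and 167 in K_FNV, 36 and 30 in BKM_FNV and 2408 in BKM_Sox17, and its part in these results was not tested.

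In the parallel experiment most of the chain was higher at the start. On day 4 in N2B27 67 of 77 members rose against MEFs and none fell, where 37.6% of all genes were called, 19.1% as higher and 18.4% as lower. The median was 1.23, against -0.05 over all genes. Other short transcripts had a median of 0.68 and long ones of -0.15. With a term for transcript length 56 members rose and none fell, with a median of 0.62, where 38.9% of all genes were called. All 8 genes of complex III rose, as did 33 of 35 of complex I, 15 of 17 of complex IV and 11 of 17 of complex V. The MEFs were of another line, in another medium and without factors, which cannot be told apart.

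Cox6b2 had 1300 and 1255 in N2B27 on day 4, against 23 and 24 in MEFs (5.65 ± 0.45, adjusted p = 1.77e-07). Uqcr11, whose ETS match is shown above, had 1913 and 2070 in N2B27, against 358 and 414 in MEFs (2.36 ± 0.30). Ndufb2, an accessory subunit of complex I, had 1831 and 1720 in N2B27, against 346 and 363 in MEFs (2.32 ± 0.25). Ndufs6, which binds zinc in complex I, had 1004 and 1068 in N2B27, against 187 and 252 in MEFs (2.24 ± 0.34). Ndufa4 had 7161 and 6321 in N2B27, against 1587 and 1471 in MEFs (2.14 ± 0.29). In each of them the lowest N2B27 library was well above the highest MEF library. Ndufa4l2 had 32 and 30 in N2B27 and was listed at 0 in both MEF libraries. Other subunits were not called. Atp5a1 had 7922 and 8371 in N2B27, against 7922 and 7687 in MEFs (0.06), with overlapping groups, and Atp5b stood at -0.10 and Ndufs1 at 0.05. Beside the chain, 12 of 20 mitochondrial ribosomal proteins, 24 of 39 assembly factors and 8 of 8 respiratory genes outside the naming rule rose, among them Cycs, cytochrome c (1.66). Of 17 hypoxia response genes 9 fell and 2 rose.

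By day 8 in N2B27, 24 members had fallen against day 4 and none had risen, where 12% of all genes were called, 5.96% as lower and 6.07% as higher. The median was -0.62, and other short transcripts had -0.38. With the length term 20 fell and none rose, with a median of -0.27, where 11.5% of all genes were called. Cox6b2 had 563 and 241 on day 8, against 1300 and 1255 on day 4 (-1.79 ± 0.45, adjusted p = 0.0188). Atp5g2 (-1.41) and Atp5l (-1.18) came next. The calls of these 3 genes were lost without day 4 replicate 1, day 4 replicate 2 or day 8 replicate 2, at adjusted p of 0.0782 to 0.211. The count of called members was 1 without day 8 replicate 2, 3 without day 4 replicate 1, 6 without day 4 replicate 2 and 42 without day 8 replicate 1, and with size factors it was 11. It was 0 when only the 4 libraries of these days were fitted.

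On Dox, on days 12 and 16, LIF/2i cells had 6 members higher and 14 lower than NSC-medium cells, where 44.7% of all genes were called, 22.6% as higher and 22% as lower. The median was -0.16 and that of other short transcripts -0.23. With a length term the split was 24 higher and 11 lower, where 45.2% of all genes were called. Atp5a1 had 11250 and 16249 on day 12 and 10627 and 13761 on day 16 in LIF/2i, against 8832 and 8832, and 7354 and 7922, in NSC medium (0.64 ± 0.11). LIF/2i was above NSC medium in every library. Uqcrh, the hinge protein of complex III, had 2905 and 1783 on day 12 and 3412 and 2355 on day 16 in LIF/2i, against 3810 and 3524, and 5742 and 4722, in NSC medium (-0.78 ± 0.16). The count moved from 20 to 34 without LIF/2i day 12 replicate 1, to 32 and 11 without the replicates 1 and 2 of LIF/2i day 16, and to 13 without NSC-medium day 12 replicate 1.

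After Dox withdrawal, on days 20 and 24, most of the chain was higher in LIF/2i. Of 77 members, 64 were higher in LIF/2i than in NSC medium and 1 was lower, where 56.8% of all genes were called, 26.3% as higher and 30.5% as lower. The median was 0.71, against -0.10 over all genes, 0.34 over other short transcripts and -0.17 over long ones. With the length term 55 were higher and 4 lower, where 57.9% of all genes were called. Complex I had 27 of 35 higher, complex III 7 of 8, complex IV 15 of 17 (median 0.98) and complex V 15 of 17.

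Cox7a1, the heart and muscle isoform of its subunit (chr7:30184144-30186078), had 126 and 91 on day 20 and 154 and 154 on day 24 in LIF/2i, against 10 and 9, and 4 and 7, in NSC medium (3.83 ± 0.26, adjusted p = 7.9e-09). Skeletal muscle markers summed to 3090 to 3104 and 3458 to 3471 in the LIF/2i libraries of these days, against 175 to 214 in NSC medium, and to 1114 to 1143 in MEFs. The sums are over the 7 listed markers that were measured of 8, all above 0 in both media on these days, and their part in the result was not tested. Cox5a had 5744 and 4792 on day 20 and 4359 and 4154 on day 24 in LIF/2i, against 1631 and 1316, and 896 and 1098, in NSC medium (1.97 ± 0.18, adjusted p = 2.22e-07). Cox6a1, the common isoform of its subunit, had 8832 and 7354, and 9343 and 11250, in LIF/2i, against 3368 and 2801, and 2343 and 2857, in NSC medium (1.69 ± 0.12, adjusted p = 1.18e-08). Uqcr10, a small complex III subunit, had 1996 and 1622, and 2070 and 2250, in LIF/2i, against 917 and 676, and 583 and 639, in NSC medium (1.50 ± 0.17). The lowest LIF/2i library was above the highest NSC-medium library in all 4 genes. Atp5k (1.62 ± 0.29), Uqcr11 (1.50) and Ndufs8 (1.26) were higher as well. The single lower gene was Atp5s, a factor B protein tied to ATP synthase (-0.35), and Ndufs3 (-0.02), Ndufv3 (0.05), Ndufa8 (-0.01) and Ndufs1 (0.15) were not called.

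Pluripotency markers summed to 64166 to 73564 on day 20 and 93508 to 93607 on day 24 in LIF/2i, against 6191 to 8462 and 2095 to 7040 in NSC medium, while fibroblast markers stayed high in both, at 250048 to 293575 and 183101 to 184836 in LIF/2i, against 298432 to 302559 and 286587 to 310886 in NSC medium. Of the mitochondrial ribosomal proteins 18 of 20 were higher in LIF/2i and 1 was lower (median 0.70). Of 15 biogenesis genes 10 were higher and 2 lower, among them the nuclear receptor Esrrb, also a pluripotency gene (6.35, means 6444.75 in LIF/2i and 103.5 in NSC medium), and Pprc1 (1.22). Hypoxia response genes were lower in 13 of 17 cases and higher in 1, for example Egln3 (-2.01) and Pdk1, a kinase that holds back pyruvate oxidation (-1.63).

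The difference after withdrawal came with a fall in NSC medium. Dox status went with day and with time in the medium, so these cannot be told apart. The members' median deviation was 0.67 and 0.63 on day 12 and 0.52 and 0.31 on day 16. It was -0.31 and -0.51 on day 20 and -0.94 and -0.65 on day 24. Against days 12 and 16 with Dox, 69 of 77 members fell on days 20 and 24 in NSC medium and 1 rose, where 55.6% of all genes were called, 30.3% as lower and 25.3% as higher. The median was -1.09, against -0.06 over all genes. Other short transcripts fell alongside, with a median of -0.78, while long ones stood at 0.29. With the length term 54 fell and 4 rose, with a median of -0.35, where 53.3% of all genes were called. Atp5l, a membrane subunit of ATP synthase with many near-identical copies, had 3594, 2474, 1369 and 1892 after withdrawal, against 11669, 11669, 11669 and 6321 on Dox (-2.19 ± 0.24, adjusted p = 2.28e-06). Cox5a had 1631, 1316, 896 and 1098 after withdrawal, against 5432, 5744, 3525 and 2905 on Dox (-1.81 ± 0.18). Atp5g2 fell by 1.98 ± 0.28 and Cox7a2, the common partner isoform of Cox7a1, by 1.80 ± 0.20. No later library reached the lowest earlier one in Atp5l or Cox5a. Ndufs1 (-0.07), Atp5a1 (-0.17) and Ndufv3 (-0.18) were not called. Ndufa4l2 alone rose, with 88, 54, 36 and 36 after withdrawal, against 4, 6, 34 and 47 on Dox, groups that overlapped. That call was lost with 1 as the number added (adjusted p = 0.0679) and without 7 of the 8 libraries in turn (0.0551 to 0.101). Hypoxia response genes rose in 13 of 17 cases. All 20 mitochondrial ribosomal proteins and 33 of 39 assembly factors fell.

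In LIF/2i 5 members rose and 20 fell over the same step, where 40.5% of all genes were called, 16.6% as higher and 23.9% as lower. The members' median was -0.21. With the length term 17 rose and 17 fell, where 40.5% of all genes were called. Without LIF/2i day 12 replicate 2 the count of called members was 40. Atp5d, the delta subunit of the ATP synthase rotor, fell by 0.84 ± 0.12 and Atp5g3 by 0.77, while Cox7a1 rose by 2.55 ± 0.26. Cox7b2, a testis isoform of complex IV (chr5:71442824-71548205), was listed at 0 on day 12 and had 534 and 0 on day 16, 587 and 572 on day 20 and 670 and 604 on day 24. In NSC medium it had 0 and 0 on day 12, 0 and 539 on day 16, 0 and 456 on day 20 and 305 and 367 on day 24, and it was listed at 0 in the N2B27, MEF, NSC and iNSC_BKMF libraries. It was thus listed at 0 or had at least 305, and replicates of the same group could differ in this. Its call in LIF/2i was lost without day 16 replicate 2 (adjusted p = 0.0606).

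The difference between the media in this step was tested as an interaction. Dox and day changed together in it and cannot be told apart. The change after withdrawal was more positive in LIF/2i than in NSC medium for 64 of 77 members and more negative for none, where 33.9% of all genes were called, 16.1% as higher and 17.8% as lower. The median difference was 0.94, against -0.02 over all genes, 0.63 over other short transcripts and -0.27 over long ones. With the length term 46 were more positive and 1 more negative, with a median of 0.41, where 32.1% of all genes were called. Among called members the largest differences were in Cox7a1 (2.90 ± 0.37), Atp5k (1.98 ± 0.41), Atp5g2 (1.79 ± 0.40), Cox6b2 (1.69 ± 0.45) and Cox7c (1.60 ± 0.28), and all 8 genes of complex III were among the 64. Cox7b2 (2.60) and Cox8c (1.68, adjusted p = 0.134), both listed at 0 in some libraries, were not called.

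**Figure D5:**
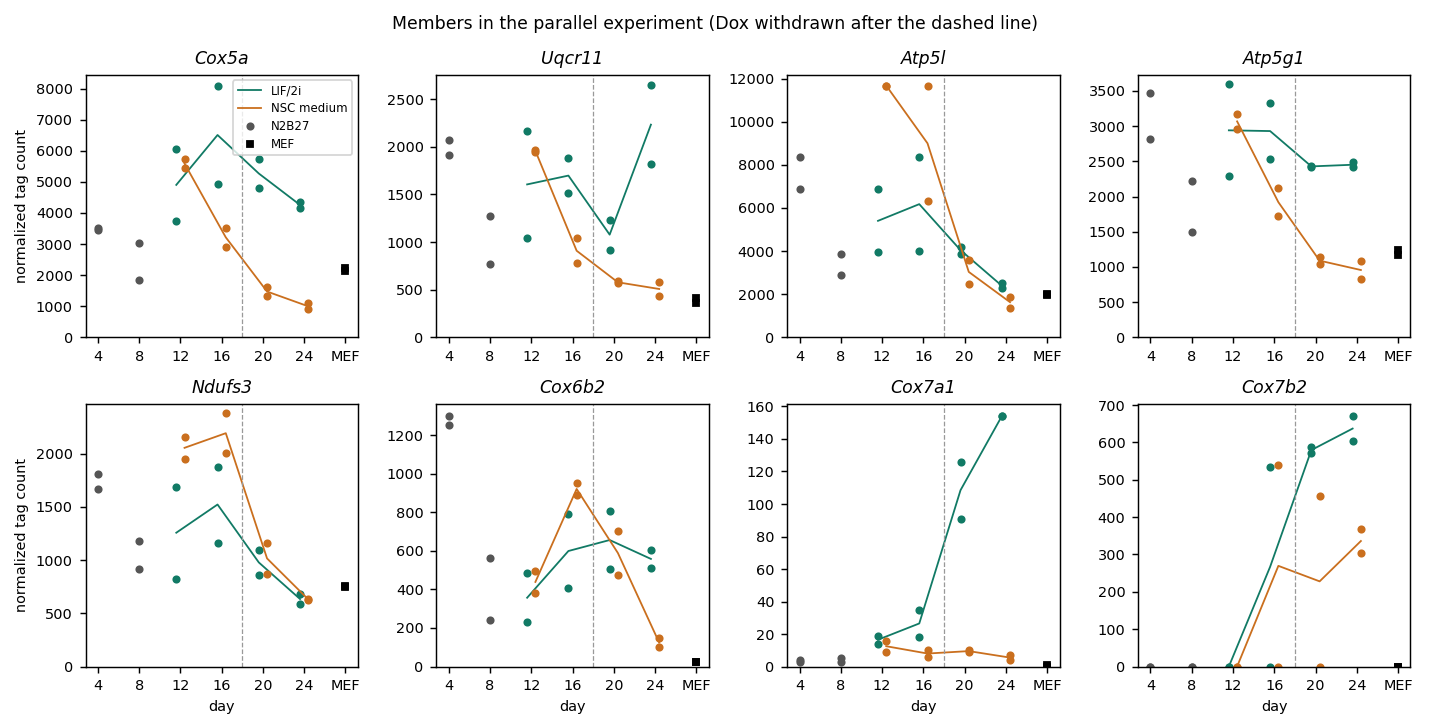
Values of Cox5a, Uqcr11, Atp5l, Atp5g1, Ndufs3, Cox6b2, Cox7a1 and Cox7b2 in each library of the parallel experiment, by day, for LIF/2i, NSC medium and N2B27 with MEF libraries beside them (points are libraries, lines join group means, and the dashed line marks the withdrawal of Dox). Cox5a in NSC medium drops to between 896 and 1631 on days 20 and 24, against 4154 to 5744 in LIF/2i.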

How the data were processed

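RNA-seq of mouse cells was deposited as 2 tables with 1 value per gene and library. Libraries were made from Trizol RNA with oligo(dT) selection, fragmentation and random hexamers, per the labels' protocols. Reads were handled with Bowtie2 2.0 and RSEM (version not given in the sources used here) on mm10, per the submitters' processing notes. The authors deposited normalized tag counts, treated here as a score of no fixed unit. All were whole numbers, and the columns of a table share nearly 1 distribution (medians of 166 in the NSC-medium table and 194 to 195 in the parallel table), so depth is unknown and no interval that needs it is given. The deposited tables were normalized separately, and each test stayed within 1 table. RSEM on short, overlapping or duplicated genes can shift their values.

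Groups were taken from the labels. No labelled sample matched 4 other columns, which were left out, and the NSC columns were matched to their group only. BKM_Sox2 day 24 replicate 1 was left out (24.5% of genes at 0, median of 32, correlation of 0.0578 with its replicate, and 18322 of 21241 values along the longest run of rows that never falls, against at most 4569 elsewhere), and is kept in an alternative. Tested were genes that reached 10 in 2 or more libraries (20760 and 20468 genes, with 76 and 77 members). Cox7a1 did not pass in the NSC-medium table. Log2 of the value plus 2 was fitted with limma 3.58.1 (R 4.3.3) with 1 mean per group and a trend of the variance, and 21 contrasts were tested two-sided, with Benjamini-Hochberg adjustment within each contrast. Comparisons over several days averaged the differences by day, and comparisons across Dox withdrawal set day 20 against day 12 and day 24 against day 16. No contrast joined days 4 to 18 with days 24 and 30 of the NSC-medium experiment, whose description labels are written in another style, although titles and columns share 1 style. A member was called at an adjusted p below 0.05. Errors of fold changes are standard errors. The test was tried on simulated data.

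Named were up to 5 rises and 5 falls per comparison among called members whose mean reached 100 in a group, the isoform, c-ring and complex I core lists where described, and up to 4 called genes of other lists. Other members (Atp5b, Cox5a, Ndufa11, Ndufa8, Ndufs8, Uqcrc1 and others outside that rule) were named after their values were seen. Members and lists were chosen with earlier results of these data known. Transcript lengths and overlaps came from GENCODE vM21 (GRCm38) and promoters from RefSeq (GRCm38.p6), searched in Python 3.11.15. Replicate numbers shared by groups did not pair the samples (correlations of deviations of -0.08 to 0.09). Alternatives were another number added, no filter, size factors, the compared groups alone, the replicate block, leaving out each library, and, added after the data were seen, a term for transcript length in 20 bins. Results that need some items withheld for evaluation are not reported here.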

Additional observations from a re-analysis of the deposited data

Results flagged for a closer look

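The change of the chain after Dox withdrawal differed between LIF/2i and NSC medium, by a test of the difference itself (the interaction in limma). Day changed along with Dox, and they cannot be told apart. The difference was called for 64 of 77 members, all more positive in LIF/2i, where 33.9% of all genes were called, 16.1% as higher. Among the genes named for it, Cox7a1 differed by 2.90, Atp5k by 1.98, Atp5g2 by 1.79, Cox6b2 by 1.69 and Cox7c by 1.60 on the log2 scale. Other short transcripts differed alongside (median 0.63), and their part in the result was tested only through the length term. Under that term 46 members were more positive, where 32.1% of all genes were called.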

How the results depend on the processing

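Of the 21 counts of called members, none moved by more than 1.5 times with 1 or 10 as the number added or without the filter. Except for the length term, the share of all genes called under an alternative setting is not given here. Counts under those settings therefore do not tell a change of the members from one that all genes share. With size factors the count of BKM_FNV against BKM_Sox17 after Dox was 18 and that of N2B27 day 8 against day 4 was 11. With the length term that of BKM_FNV against BKM_Sox17 after Dox was 22, where 50.9% of all genes were called. LIF/2i against NSC medium on Dox gave 35, where 45.2% of all genes were called. The other counts stayed within 1.5 times under both.

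With only the compared groups in the fit, called members numbered 0 in iNSC_BKMF and 3 in iNSC_KF against NSCs, 25 for day 18 against day 4 of BKM_Sox2 and 10 of K_FNV, 12 for BKM_FNV against BKM_Sox2 on Dox, and, after Dox, 22 for BKM_FNV against BKM_Sox17 and 19 against BKM_Sox2. They were 0 for N2B27 day 8 against day 4, 6 for LIF/2i against NSC medium on Dox and 13 for LIF/2i after against on Dox. Fewer samples then estimate the spread.

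With BKM_Sox2 day 24 replicate 1 kept, which widens the spread for all, counts were 16 for NSC against MEF, 0 and 2 for iNSC_BKMF and iNSC_KF against NSCs, and 8 for day 4 against MEF. They were 13, 10, 13 and 5 for day 18 against day 4 of BKM_FNV, BKM_Sox17, BKM_Sox2 and K_FNV. On Dox they were 0 and 6 for BKM_FNV against BKM_Sox17 and BKM_Sox2 and 12 for K_FNV against BKM_FNV, and after Dox 2, 7 and 5. In BKM_FNV against BKM_Sox2 after Dox, it reversed Ndufa11 (1.59), Ndufa5 (1.62) and Ndufb2 (1.52).

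Leaving out each library in turn gave 0 to 4 called members for iNSC_BKMF and 10 to 17 for iNSC_KF against NSCs, and 26 to 34, 21 to 28 and 15 to 30 for day 18 against day 4 of BKM_FNV, BKM_Sox17 and K_FNV. BKM_FNV against BKM_Sox17 gave 6 to 20 on Dox and 7 to 14 after it, and K_FNV against BKM_FNV 12 to 18 after it. N2B27 day 8 against day 4 gave 1 to 42, LIF/2i against NSC medium on Dox 11 to 34, and LIF/2i after against on Dox 18 to 40. NSC against MEF gave 39 to 43, N2B27 day 4 against MEF 59 to 62, LIF/2i against NSC medium after Dox 59 to 64, NSC medium after against on Dox 68 to 70 and the interaction 58 to 69. Atp5g1, in BKM_FNV against BKM_Sox17 after Dox, ran from -0.43 to 0.031, and was positive without BKM_Sox17 day 30 replicate 1 (adjusted p = 0.968). Causes were not tested.

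The replicate numbers did not pair the samples. A replicate block kept all 18 counts it could be fitted to within 1.5 times, and of the named genes 1 call was lost, Atp5g3 in BKM_FNV against BKM_Sox2 on Dox (-0.34, adjusted p = 0.0536). No block could be fitted for the 3 comparisons with NSCs, whose columns carry no label of a replicate.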

Other observations

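Replicates of the parallel experiment stood apart in the chain as a whole. In LIF/2i the median log2 deviation of the members was 0.56 and -0.04 in the 2 libraries of day 12 and 0.72 and 0.19 in those of day 16, and other short transcripts stood at 0.41 and -0.05, and 0.62 and 0.14, in the same libraries. In N2B27 on day 8 the members stood at -0.01 and -0.39 and other short transcripts at 0.02 and -0.24. In NSC medium the replicates were closer on day 12, at 0.67 and 0.63 for the members.

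The MEF and iNSC_BKMF columns of both tables belong to the same samples, and the NSC columns to the same group. Their order was kept in the parallel table, which normalized them again, so it is no independent result. The members' median deviation was -0.12 and -0.19 in NSCs, -0.38 and -0.29 in iNSC_BKMF and -0.78 and -0.69 in MEFs, while other short transcripts stood at -0.42 and -0.46 in NSCs and -0.36 and -0.35 in MEFs. No contrast of these groups was fitted in that table.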
